A study of Mus musculus with 12 samples.

Results

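The nuclear genes of the mitochondrial respiratory chain were examined for DNA methylation at their ends in the left ventricle of mouse offspring. The genes were taken by symbol: autosomal protein-coding genes starting with Nduf, with Sdh followed by a, b, c or d, with Uqcr, with Cox4 to Cox8, or with Atp5. Of 20661 autosomal protein-coding genes in the annotation, 97 carried such a symbol. Of these 97 genes, 67 had at least 1 CpG position within 1 kb of either end with a value in all 12 mice, and 645 positions were collected in this way. Of these, 343 positions in 27 of the 67 genes also lie within 1 kb of an end of another gene and cannot be assigned to 1 gene alone. A gene's level is the mean over its positions. Tests used the 60 genes with 3 positions or more, and 7 genes had only 1 or 2. The other 30 genes had none, and 5 of those 30 (Ndufb3, Ndufs7, Uqcrb, Atp5b and Atp5d) had positions with values in fewer mice only.

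Left ventricles of 12 wild-type FVB/N mice were profiled by reduced representation bisulfite sequencing at weaning, aged 3 weeks. Virgin females were put on a high-fat (HFD) or regular (RD) diet when 6 weeks old, mated 8 weeks later to RD-fed males, and kept on their diet throughout. Sampled were 3 female and 3 male pups of HFD mothers and 4 female and 2 male pups of RD mothers, and how many litters they came from was not given in the sources used here. The assay digests DNA with MspI, which cuts at CCGG, and reads the methylated share of each cytosine near those cuts. The whole ventricle was used, so each value averages over all its cell types.

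The respiratory chain passes electrons from NADH (complex I) and succinate (complex II) through complexes III and IV to oxygen, and the proton gradient this builds drives ATP synthase, here complex V. Heart muscle depends on this pathway for most of its ATP. A few subunits are encoded in mitochondrial DNA and the rest in the nucleus, where most of the genes have CpG-rich promoters of the kind that is usually free of methylation. Several complex IV subunits exist as pairs, 1 form found in most tissues and 1 in heart and skeletal muscle.

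The libraries held values at 385299 to 417081 positions. The table gives percentages without read counts, so the depth behind a value is unknown. In 1 respect the libraries of the diets stood apart. Over 128368 autosomal positions with a mean under 5%, the share listed at exactly 0 was 45.7 to 58.0% in the 6 HFD and 59.1 to 68.0% in the 6 RD libraries. Over the 549 such positions of the respiratory chain genes it was 50.1 to 66.8% and 65.0 to 78.3%, with HFD male 3 the lowest of all. HFD libraries were numbered 2 to 8 and RD libraries 9 to 14 by the submitters, so the diets and the order of the libraries cannot be told apart. Methylation near marker genes of other cell types was also listed. Endothelial markers (3 of 7 with positions) averaged 13.7 to 22.3% in HFD and 24.5 to 35.5% in RD, without overlap. Of these, Pecam1, an adhesion molecule of endothelial cells, had 19.4% ± 7.36 and 46.3% ± 2.13 (SD, n = 6 each) over 2 positions. Tie1 and Kdr, endothelial receptors, had 27.9% ± 5.42 and 37.7% ± 8.28, and 5.76% ± 4.19 and 5.78% ± 4.08, each with overlap (SD, n = 6 each). Cardiomyocyte markers (5 of 8) averaged 26.8 to 34.8% and 31.4 to 35.3%, fibroblast markers (4 of 7) 32.2 to 47.7% and 20.3 to 47.2%, and smooth muscle markers (2 of 4) 6.45% ± 3.93 and 6.61% ± 5.18 (SD, n = 6 each). The erythroid gene Klf1 lay at 8.02 to 12.3% and 8.09 to 16.3%, liver markers (2 of 6) at 33.5 to 43.7% and 27.8 to 41.3%, skeletal muscle markers (2 of 6) at 14.8 to 17.2% and 15.1 to 19.1%, and 0 of 7 leukocyte markers had a position. Methylation of a marker is not its expression, and the part of either pattern in the diet differences below was not tested.

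**Figure D1:**
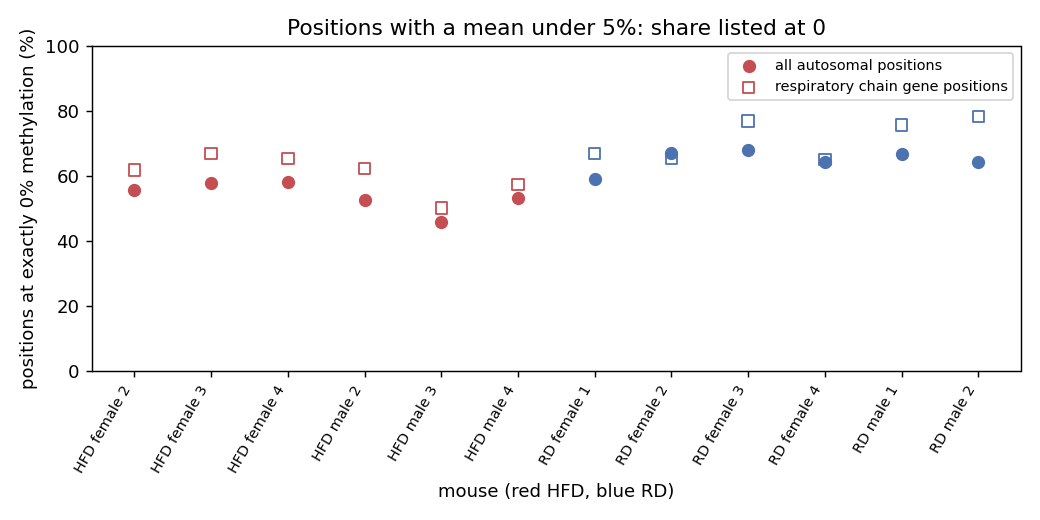
Share of positions listed at exactly 0% methylation (y axis, %) in each mouse (x axis), among autosomal positions with a mean under 5% over the 12 mice. Filled circles are all 128368 such positions and open squares the 549 of the respiratory chain genes. Red marks HFD and blue RD; the 6 HFD circles, at 45.7 to 58.0%, all lie under the RD circles.

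Promoter sequences were then set beside the measured positions. RefSeq promoter sequences (GRCm38.p6, 250 bases before to 50 after the start) were found for 79 of the 97 genes. They held a median of 20 CpG, against 14 over 16456 autosomal protein-coding genes, and 12.7% of them lacked CCGG, against 36.8%. Of the 138 positions of the table inside the 79 sequences, 137 fell on a CpG, and over all genes the share was 99.4%. Sequences are printed only where no gene model overlaps the 250 bases. The first set shows 3 promoters with measured positions, those with the most, and capitals mark each CG with a value in all 12 mice. The stretches are chr5:145191542-145191791, chr6:126849145-126849394 and chr13:86046796-86047045, all read on the minus strand.
Atp5j2: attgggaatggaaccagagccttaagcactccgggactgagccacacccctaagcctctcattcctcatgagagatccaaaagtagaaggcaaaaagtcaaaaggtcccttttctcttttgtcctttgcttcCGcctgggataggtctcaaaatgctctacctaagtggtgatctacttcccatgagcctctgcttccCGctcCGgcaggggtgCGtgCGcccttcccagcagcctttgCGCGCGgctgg
Ndufa9: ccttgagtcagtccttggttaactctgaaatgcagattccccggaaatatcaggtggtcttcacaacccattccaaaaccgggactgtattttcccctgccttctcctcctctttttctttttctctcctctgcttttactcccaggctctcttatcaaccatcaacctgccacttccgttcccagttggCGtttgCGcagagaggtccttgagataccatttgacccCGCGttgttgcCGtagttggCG
Cox7c: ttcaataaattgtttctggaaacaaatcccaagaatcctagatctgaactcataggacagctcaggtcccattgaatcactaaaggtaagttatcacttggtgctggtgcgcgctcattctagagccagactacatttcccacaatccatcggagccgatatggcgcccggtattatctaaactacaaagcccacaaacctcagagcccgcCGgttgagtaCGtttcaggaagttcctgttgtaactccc

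Over the 9 positions in the Atp5j2 stretch (a membrane subunit of ATP synthase) the mice averaged 0.231 to 3.60%. The 6 positions of Ndufa9, a complex I subunit, averaged 0 to 1.49%. The 2 positions of Cox7c, a small subunit of complex IV, averaged 4.15%, with 10.5% in the highest mouse. All 3 means were under 5%. The Atp5j2 positions lie 7 to 117 bases before the start and number 1 more than the 8 marked CG, because both bases of 1 CG have a value.

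Binding motifs of factors known to act on respiratory genes were searched on both strands of the 300 bases. The NRF1 core GCGCATGC was in 15.2% of the 79 promoters and in 3.65% of all 16456. The corresponding shares were 26.6% and 12.2% for the GABP motif CCGGAAG, 8.86% and 1.95% for the YY1 motif AAGATGGCG, and 5.06% and 1.32% for the ERR motif CAAGGTCA. For the SP1 box GGGCGG they were 48.1% and 47.3%. CCGGAAG holds the MspI site CCGG, and the other motifs may overlap each other. A match is a description of the letters only.

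Methylation separated by gene end. Of the positions whose nearest end was a 5′ end (480 positions, 47 genes), 91.7% had a mean under 5%, the median was 0.853% and 0 exceeded 50%. Of those nearest a 3′ end (32 positions, 7 genes), 24 exceeded 50% and the median was 89.5%. Averaged by gene, the 48 respiratory chain genes with positions within 1 kb of the 5′ end had a median level of 1.77%, and the median over all 7569 genes was 2.05%. At 3′ ends the median was 78.5% in 9 respiratory chain genes and 69.8% in all 1964. The same split was therefore present over all genes, and the share of genes over 50% at the 5′ end was 0% here and 7.15% overall. The strand was known for 53 of the 67 genes. For the other 14 the ends are named by coordinate.

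**Figure D2:**
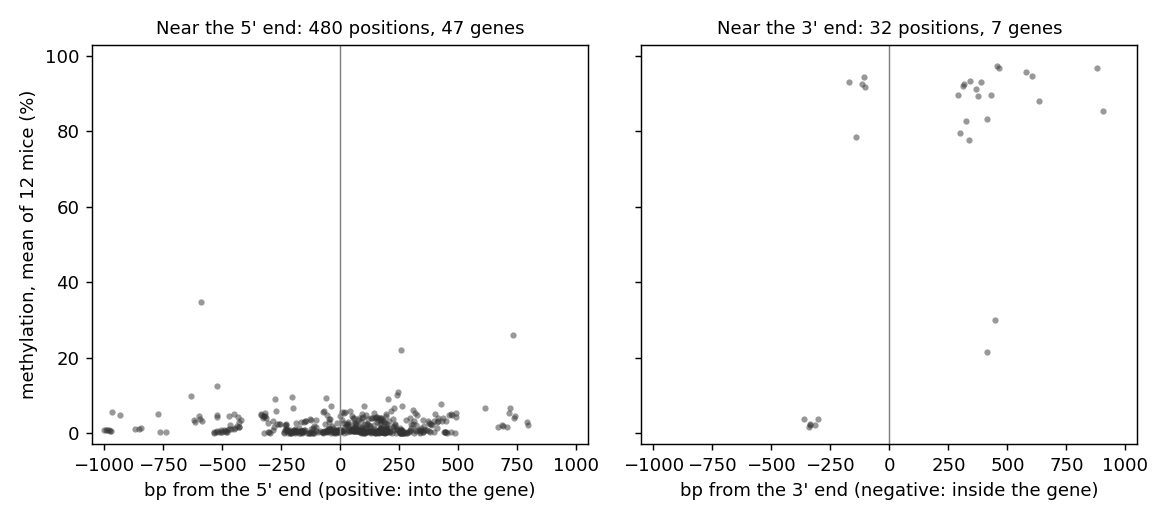
Methylation of single positions (y axis, mean of 12 mice, %) by distance from the nearest gene end in base pairs (x axis), for genes with a known strand. The left panel holds 480 positions near 5′ ends, nearly all close to 0, and the right panel 32 near 3′ ends, 24 of them over 50%.

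In complex I, which oxidises NADH, 26 of 37 genes had positions, and 20 of the 26 lay under 5%. The lowest was Ndufb9, an accessory subunit, at 0.0830%, with all 6 RD mice at 0. The median of the 26 was 1.59%. Ndufs6, a subunit of the peripheral arm, stood at the middle with 1.43%. The best covered low gene was Ndufb8, an accessory membrane subunit with 24 positions, at 0.979% ± 0.340 in HFD and 0.688% ± 0.140 in RD (SD, n = 6 each). Ndufb5 and Ndufv3 were the 2 high genes, and each had 3 positions, all 291 to 369 bp beyond its 3′ end. Ndufb5, an accessory membrane subunit at chr3:32737057-32751559, ranged from 88.1 to 94.4% (median 91.3%) in HFD and from 83.3 to 95.6% (median 94.0%) in RD. Ndufv3, a subunit of the NADH-binding arm at chr17:31520115-31531326, ranged from 79.6 to 89.0% (median 84.3%) and from 80.1 to 86.6% (median 85.4%). The diets overlapped fully in both.

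Other complex I genes lay between these extremes. Ndufa8 at chr2:36036324-36049338 averaged 5.29%, made of 12 positions at its 5′ end at 1.90% and 2 positions beyond its 3′ end at 25.7%. It was the only gene of known strand with positions nearest to each of its ends. Ndufa13, which is also known as the cell-death regulator GRIM-19, averaged 5.36% over 24 positions that also lie near an end of Tssk6. Ndufc1, a small membrane subunit, averaged 9.78% over 4 positions 667 to 734 bp inside the gene, of which the innermost had 25.8%.

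Complex II, succinate dehydrogenase, was low throughout: 4 of 4 genes had positions and all averaged under 5%. Sdha, the flavoprotein that oxidises succinate, was lowest at 0.653%, Sdhd, a membrane anchor, had 0.852%, and Sdhb, the iron-sulfur subunit, was highest at 2.51%. Complex III passes electrons from ubiquinol to cytochrome c, and 5 of its 8 genes that match the symbols had positions. Its subunit gene Cyc1 does not match them and is given with the other lists. The lowest was Uqcrq at 1.22% and the middle Uqcrc2, a core protein, at 2.46%. Uqcr10, a small subunit at chr11:4701968-4704344, had 4 positions, all 105 to 172 bp inside its 3′ end. It ranged from 90.3 to 97.6% (median 92.9%) in HFD and from 86.4 to 98.0% (median 91.7%) in RD.

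Complex IV, cytochrome c oxidase, had positions in 9 of 18 genes and a median of 8.83%. That median depended on the positions counted: it was 2.55% within 500 bp of an end and 1.99% over 5′ ends alone. Cox5b, a zinc-binding subunit, was lowest at 0.567%. Cox8a, the form of subunit VIII found in most tissues, was highest at 78.5%, but from 1 position 142 bp inside its 3′ end. Its values were 74.4 to 89.3% (median 81.9%) in HFD and 71.4 to 82.5% (median 75.5%) in RD, and the diets overlapped. Cox6b2, a testis form at chr7:4751792-4753094, averaged 24.7% from unlike parts. Beyond its 3′ end, 2 positions had means of 85.5 and 96.8%, while 6 positions inside the gene had 1.56 to 3.76%. Ndufa4l2, a hypoxia-induced relative of Ndufa4 at chr10:127509274-127517154, averaged 26.1%, with 7.85% over 8 positions at its lower-coordinate end and 62.6% over 4 at the higher one. Its windows also lie near ends of Stac3 and Shmt2. Cox5a, a matrix-side subunit, had 9.14% from 1 position.

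Complex V, ATP synthase, had positions in 12 of 17 genes with a median of 2.20%. Atp5g2, for the membrane c subunit, was lowest at 0.403%, and Atp5mpl, a small associated protein, stood at the middle with 1.91% from 2 positions. Atp5e, for the epsilon subunit of the catalytic head, had 11 positions 314 to 634 bp beyond its 3′ end at chr2:174461075-174464101. It ranged from 88.9 to 92.4% (median 90.5%) in HFD and from 88.3 to 93.4% (median 91.0%) in RD, and no mouse stood apart. Atp5a1, for the alpha subunit, averaged 13.2%, with 1.52% over 13 positions at its lower-coordinate end and 89.4% over 2 at the higher one. Atp5o, which links the head to the stalk, had 8.91% from 1 position. The 11 assembly factors with positions, of 13 that match the symbols, all lay under 5%, with a median of 1.79%.

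Mean levels by complex were not tested, and those of complexes I, III, IV and V each include at least 1 gene over 50% that was read at its 3′ end. In the 12 mice they averaged 8.98% ± 0.501 for complex I, 1.43% ± 0.603 for II, 20.2% ± 1.45 for III, 16.8% ± 1.18 for IV and 10.8% ± 0.492 for V (SD, n = 12). With 5′ ends alone they were 2.05, 1.34, 2.32, 3.42 and 2.65%, from 20, 3, 2, 4 and 9 genes. By diet, complex I averaged 9.12% ± 0.599 in HFD and 8.85% ± 0.385 in RD, and complex IV 17.3% ± 1.16 and 16.4% ± 1.13 (SD, n = 6 each). Complex II had 1.65% ± 0.718 and 1.21% ± 0.406, complex III 20.2% ± 1.46 and 20.3% ± 1.57, and complex V 10.8% ± 0.338 and 10.8% ± 0.644. The ranges of the diets overlapped for each complex.

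**Figure D3:**
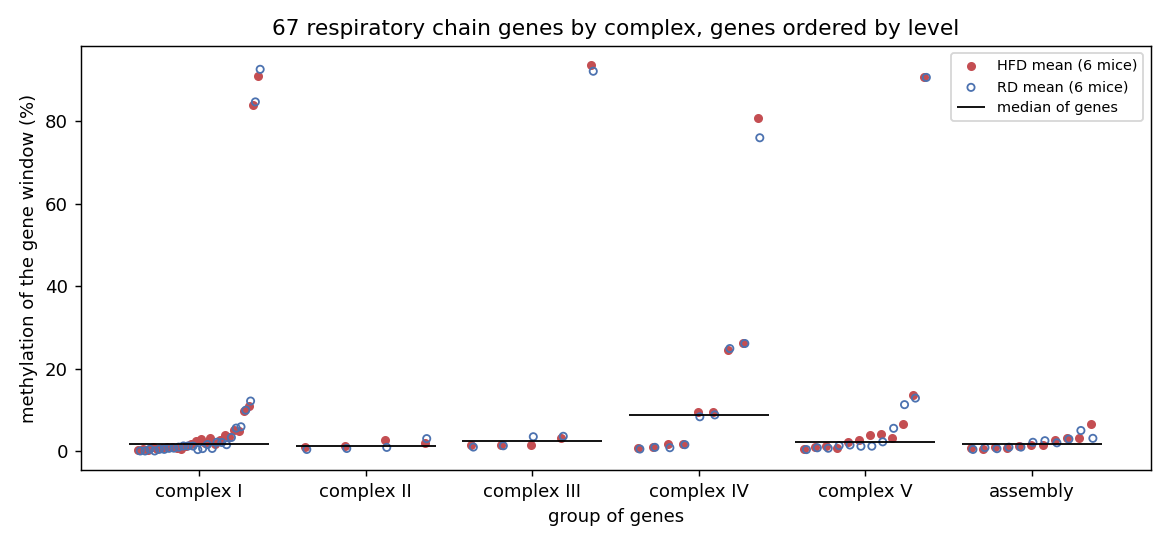
Methylation of 67 respiratory chain genes (y axis, %) by complex (x axis), with genes ordered by level within each group. Filled red points are HFD means and open blue points RD means of 6 mice each, and the line is the median of the genes; 5 genes lie over 50% and 52 under 5%.

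The isoform pairs that distinguish heart from other tissues could not be compared. Cox6a1, Cox6a2, Cox7a1 and Cox7a2 had 0 positions within 1 kb of their ends, and Cox6b1, Cox8b, Cox8c and Ndufa4 had 0 as well. The upstream stretches of Cox6a1 (chr5:115348959-115349208, minus strand) and Cox7a1 (chr7:30183921-30184170, plus strand) are shown with CCGG, the MspI site, in capitals.
Cox6a1: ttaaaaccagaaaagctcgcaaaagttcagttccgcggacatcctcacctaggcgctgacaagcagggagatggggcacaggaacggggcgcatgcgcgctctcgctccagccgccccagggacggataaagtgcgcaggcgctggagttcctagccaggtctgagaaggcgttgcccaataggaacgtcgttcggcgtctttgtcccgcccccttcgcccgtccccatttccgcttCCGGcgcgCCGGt
Cox7a1: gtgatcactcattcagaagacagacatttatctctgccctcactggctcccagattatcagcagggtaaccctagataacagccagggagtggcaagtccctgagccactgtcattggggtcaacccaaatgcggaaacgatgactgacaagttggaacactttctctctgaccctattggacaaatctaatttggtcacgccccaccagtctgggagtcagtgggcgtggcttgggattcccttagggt

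The Cox6a1 stretch, from the form found in most tissues, held 26 CpG and 2 MspI sites. That of Cox7a1, the heart and muscle form, held 4 CpG and 0 MspI sites. Positions outside the windows were looked up after this had been seen. The nearest to Cox7a1 lay 1940 bp from its end and had 96.1%. For Cox7a2, the form found in most tissues, the promoter sequence starts 11569 bp from the end of the gene model, and 7 positions lay 131 to 202 bp downstream of that start. They averaged 0.660% ± 0.193 in HFD and 0.914% ± 0.454 in RD (SD, n = 6 each). Because the positions of the 2 genes lie at unlike distances from their starts, these values are given side by side only.

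Testing was possible for 2 pairs. Cox4i2, the form of subunit IV known from lung and hypoxia, averaged 8.83% ± 3.05 over 12 positions, and the common form Cox4i1 0.899% ± 0.718 over 18 (SD, n = 12). Cox4i2 was higher in 12 of 12 mice, by 7.93 points (exact permutation test on the differences within mice, two-sided, p = 0.000488, the smallest that 12 mice allow, and 0.000488 after Benjamini-Hochberg adjustment over 2 pairs). When positions missing in some mice were included, Cox4i1 averaged 9.96% over 32 positions and the difference was -0.930 points (exact permutation test, p = 0.546), so the order of this pair depended on that choice. The Cox4i1 positions also lie near an end of Emc8. Atp5g1 and Atp5g2 encode the same mature c subunit. Atp5g1 averaged 3.14% ± 1.49 over 3 positions and Atp5g2 0.403% ± 0.389 over 9 (SD, n = 12). Atp5g2 was lower in 12 of 12 mice, by 2.74 points (exact permutation test, two-sided, p = 0.000488, adjusted 0.000488). Different positions are compared in each pair, so a difference between genes includes that between positions.

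Maternal diet was compared gene by gene with limma on the log2 ratio of methylated to unmethylated share, with sex in the model. Of 60 respiratory chain genes, 0 passed an adjusted p of 0.05, and of all 9321 genes 2 did (0.0215%). At an unadjusted p under 0.05 there were 6 of the 60 (5 higher and 1 lower in HFD) and 6.42% of all genes (598, of which 434 were higher in HFD). The means of 39 of the 60 were higher in HFD and 21 lower, with a median difference of 0.210 points. Over all genes 56.0% were higher, with a median difference of 0.118 points. Without HFD male 3, the library with the fewest positions at 0, the split was 30 to 30 and the median 0.0225 points, and over all genes it was 4779 to 4538 and 0.0228 points. Leaving out any other mouse gave 35 to 40 of the 60 higher in HFD, with medians of 0.152 to 0.299 points. Over all genes 4923 to 5726 of 9321 were then higher. Among the 52 genes under 5%, 37 were higher and 15 lower in HFD (71.2% higher), and 58.2% of all genes under 5% were higher. Without HFD male 3 these were 31 to 21 (59.6%) and 52.6%. Among the 10 genes of 5 to 50% the split was 4 to 6, and among the 5 over 50% it was 3 to 2.

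**Figure D4:**
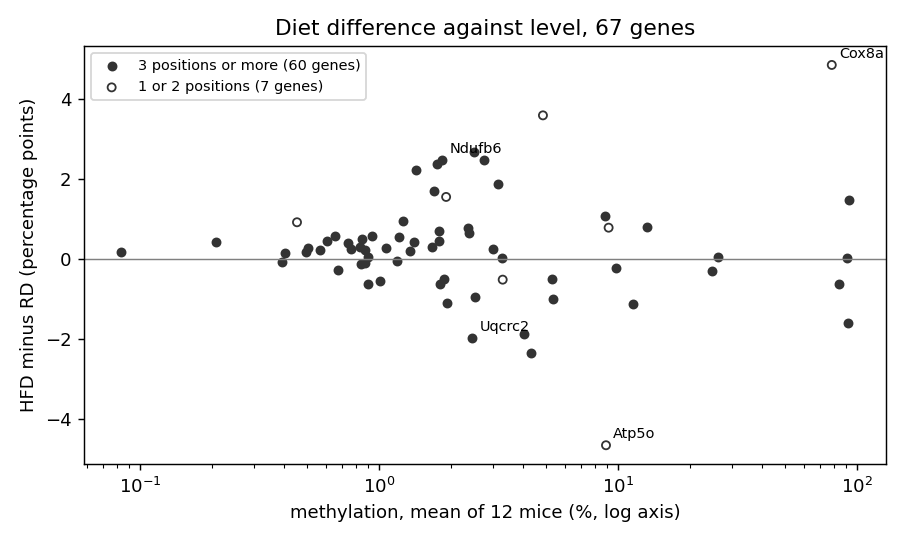
Difference between the diets (y axis, HFD minus RD, percentage points) against the mean level of each gene (x axis, %, log scale). Filled points are the 60 genes tested and open points the 7 with 1 or 2 positions; the differences run from -4.66 points (Atp5o, 1 position) to 4.84 points (Cox8a, 1 position).

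Ndufb6, an accessory subunit in the membrane arm of complex I at chr4:40270591-40279421 (minus strand), had the smallest p. Its level ranged from 2.21 to 4.04% (median 2.94%) in HFD and from 0.203 to 1.44% (median 0.527%) in RD. All 6 HFD mice lay above all 6 RD mice, which was so for 1 of the 60 genes and for 0.343% of all genes (0.515% had diets without overlap in either direction). Means were 3.07% ± 0.700 and 0.609% ± 0.436 (SD, n = 6 each), a difference of 2.46 points and of 0.57 (SE 0.08) on the log2 ratio scale. The gene did not pass (limma adjusted p = 0.0517). Over the 23 alternatives its limma adjusted p ran from 0.0358 to 0.868. It was under 0.05 in 4 of them: 0.0480 with a smaller offset in the ratio, 0.0375 with genes of 5 positions or more, 0.0358 without the sex term and 0.0418 without HFD female 4. With every position that had a value in a mouse, the difference was 1.30 points and the diets overlapped.

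The difference lay in 3 of the 6 Ndufb6 positions. At chromosome 4, position 40279869, 448 bp upstream of the 5′ end, values were 2.13 to 11.5% (median 8.66%) in HFD and 0 to 3.61% (median 2.46%) in RD. At position 40279849, 428 bp upstream, they were 0 to 10.3% (median 4.78%) and 0 to 1.22%, with 5 of 6 RD mice at 0. At position 40279247, 174 bp inside the gene, means were 3.98% ± 2.70 and 1.28% ± 3.14 (SD, n = 6 each). At the other 3 positions, 182 to 195 bp inside the gene, HFD male 3 had 1.75% and the other 11 mice 0. The diets thus overlapped at each single position and separated in the mean.

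**Figure D5:**
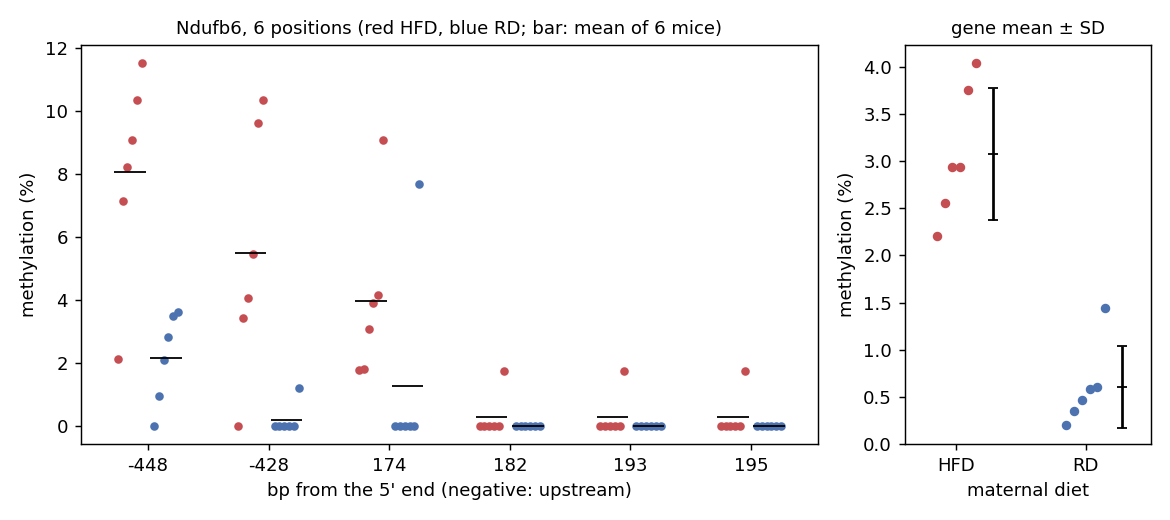
Methylation (y axis, %) at the 6 Ndufb6 positions by distance from the 5′ end (left, x axis, bp; negative is upstream) and as the mean of the gene (right, with mean ± SD, n = 6). Each point is a mouse, red HFD and blue RD, and the bars on the left are means; the gene means of HFD, 2.21 to 4.04%, lie above those of RD, 0.203 to 1.44%.

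The next genes by p were far from the threshold. Atp5g1 ranged from 2.38 to 6.71% (median 3.86%) in HFD and from 1.20 to 2.85% (median 2.53%) in RD, and the diets overlapped (limma adjusted p = 0.607). Ndufa11, an accessory subunit of the membrane arm, had 2.94% ± 2.38 and 0.574% ± 0.414 (SD, n = 6 each; limma adjusted p = 0.633). HFD female 3 had 7.35%, and the HFD mean was 2.05% without it. With windows of 2000 bp the Ndufa11 difference was 1.20 points in place of 2.36. The 21 positions also lie near an end of Vmac. Uqcrc2, the 1 gene of the 6 that was lower in HFD, ranged from 0 to 2.43% (median 1.74%) in HFD and from 1.88 to 5.18% (median 3.18%) in RD, with overlap (limma adjusted p = 0.633). Atp5c1, for the gamma subunit that turns inside the head, had 3.83% ± 2.69 and 1.16% ± 0.895 (SD, n = 6 each; limma adjusted p = 0.755). Cox6c, a small subunit of complex IV, had 1.73% ± 0.470 and 0.787% ± 0.845 (limma adjusted p = 0.755). RD female 3, at 2.38%, lay above every HFD mouse in Cox6c, and the RD mean was 0.469% without it.

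Single positions were tested where the mean over the 12 mice was 5 to 95%, which held for 92 of the 645. None of the 92 passed with limma (0 called, 6 at an unadjusted p under 0.05), against 16 of 157524 positions overall (0.0102% called and 6.53% at an unadjusted p under 0.05). The smallest p was that of the Ndufb6 position 448 bp upstream (limma adjusted p = 0.462). With no limit on the mean, all 645 were tested and 0 passed, while 28 (4.34%) had an unadjusted p under 0.05, 26 of them higher in HFD. Over all 306534 positions 39 passed (0.0127%) and 6.42% had an unadjusted p under 0.05, of which 54.8% were higher in HFD. The share of respiratory chain positions with an unadjusted p under 0.05 was thus no higher than the share of all positions. The directions were not matched for level: 549 of the 645 positions had a mean under 5%, against 128368 of the 306534. Over all such low positions, fewer were listed at 0 in HFD than in RD libraries. The part of this in the directions was not tested.

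Females and males were compared in the same model. Of the 60 genes 0 passed, and 2 of 9321 did (0.0215%). An unadjusted p under 0.05 was found for 2 of the 60 and for 6.04% of all genes. Cox4i1 had 1.28% ± 0.702 in females (SD, n = 7) and 0.366% ± 0.265 in males (SD, n = 5; limma adjusted p = 0.772). Cox7c had 0.974% ± 0.503 and 2.63% ± 1.51 (limma adjusted p = 0.789). Ndufs6 followed with 0.19% ± 0.504 and 3.16% ± 4.43 (limma adjusted p = 0.827), the male mean resting on HFD male 3 at 10.7%. Whether the diet difference itself differed between the sexes was tested as an interaction. Again 0 of the 60 passed, against 1 of 9321 (0.0107%), and 1 of the 60 and 5.54% of all genes had an unadjusted p under 0.05. The 1 of the 60 under 0.05 was Ndufa13, where the diet difference in females minus that in males was -0.86 (SE 0.24) on the log2 ratio scale (limma adjusted p = 0.796). Without RD male 1 the RD males are 1 mouse, and the count of calls over all genes was not stable, as given under processing. The median interaction of the 60 genes was -0.166 on that scale with all mice and -0.122 without RD male 1. Over all genes these medians were -0.0684 and -0.0318.

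Variation between mice of a group differed among genes. The within-group SD was 6.58 points for Atp5o and 5.40 points for Cox8a, each from 1 position, and 4.88 points for Atp5h, a stalk subunit of ATP synthase, from 11. Its median over the 67 genes was 1.26 points, close in size to the median level of 1.78%.

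Other genes of the pathway, from lists by function, gave 0 calls for diet with limma. Of assembly factors outside the symbols, 29 of 37 had positions, with a median level of 1.24%, and 28 were tested. An unadjusted p under 0.05 was found for 1 of the 28 (higher in HFD), a share below the 6.42% of all genes. That gene was Cox16, with 4.79% ± 5.41 in HFD and 0.345% ± 0.562 in RD (SD, n = 6 each; limma adjusted p = 0.746). HFD male 3 was the highest there, and the HFD mean was 2.94% without it. Cox18 and Pet117, complex IV assembly factors, were the high ones at 92.5 and 95.6%. The electron carrier gene Cycs, for cytochrome c, had 3.04% ± 1.41 in HFD against 1.02% ± 0.884 in RD (limma adjusted p = 0.610), and Cyc1 0.403% ± 0.373 against 2.14% ± 4.28 (limma adjusted p = 0.873). Of these 2 genes 1, Cycs, had an unadjusted p under 0.05, against 6.42% of all genes. RD male 2 had 10.8% in Cyc1, and without it the RD mean was 0.404%, next to that of HFD. Of 16 regulators 11 were tested and 1 had an unadjusted p under 0.05, against 6.42% of all genes. That was Ppargc1b, a coactivator of mitochondrial genes, at 0.605% ± 0.668 in HFD (limma adjusted p = 0.698). It was listed at 0 in all 6 RD mice and in the 3 HFD males, and at 1.09 to 1.35% in the 3 HFD females. Ppargc1a lay at 2.09%, Tfam at 0.832% and Nrf1 at 34.5%. Of 13 citric acid cycle genes 7 were tested, all under 5%. An unadjusted p under 0.05 was found for 2 of the 7 (1 higher and 1 lower in HFD), against 6.42% of all genes. Suclg1, for a succinyl-CoA ligase subunit, had 4.50% ± 1.58 in HFD against 2.08% ± 2.14 in RD (limma adjusted p = 0.755). RD female 1 had 5.60% in Suclg1, and the RD mean was 1.38% without it. Mdh2, the mitochondrial malate dehydrogenase, had 1.18% ± 0.693 and 2.80% ± 2.30 (limma adjusted p = 0.657). RD male 2 was the highest in Mdh2 too, at 7.41%, and the RD mean was 1.88% without it. The median differences of the 4 lists ran from -0.105 to 0.923 points, against 0.118 points over all genes.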

How the data were processed

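Per the submitters' processing notes, reads were processed with FastQC, Trim Galore, Bismark 0.19 and limma, on mm10, with no role or order given. The authors deposited 1 table of methylation in percent, whose rows are CpG positions and whose columns are mice; coverage minimum, strand handling and filters are not given in the sources used here.

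Positions within 1000 bp of either end of a RefSeq gene (GRCm38.p6) and with values in all 12 mice were averaged per gene. Strand came from the RefSeq promoter table. Genes with 3 positions or more were fitted with limma 3.58.1 (R 4.3.3) on log2((rate + 0.05)/(1 − rate + 0.05)), with diet and sex as additive terms or with their interaction. Adjusted p-values are Benjamini-Hochberg over all genes, or all positions of mean 5 to 95%, with a threshold of 0.05. P-values were two-sided and measure the spread between mice whose litters are not known. The fits were tested on simulated data, where a change of given size was recovered less often for the interaction and for single positions than for diet by gene, and most single positions or interactions of moderate size were missed. For diet and sex by gene, most changes slightly smaller than the Ndufb6 difference were also missed, so 0 calls do not exclude changes of such sizes. Isoform pairs used an exact permutation test (scipy). Levels of complexes were not tested. Alternatives changed the offset, scale, limits on positions, window, variance model and covariates, or left out each mouse in turn.

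The members and lists were chosen with earlier results of these data known. Genes were named by rule: a mean of 5 to 95% (at most the 15 highest), the 5 smallest p for diet and 3 for sex, isoform pairs, the 3 largest SDs within groups, and the lowest, median and highest of each complex. A gene that the rule names is not reported here. Cox6c, Ndufb8, Ndufa9, Atp5j2, the genes without positions and those of the other lists were named after their values had been seen.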

Additional observations from a re-analysis of the deposited data

Results flagged for a closer look

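Within each diet, values of the 6 mice were searched for 1 mouse far from the rest by Dixon's 95% criterion, which sets the gap to the nearest mouse against the whole range. This happened in 12 of 82 groups of values. Chance alone picks about 1 in 20 groups, but the 82 are not independent, since complex means are made of the genes and some genes were named for a large SD. A group with 5 mice at 0 is picked whatever the sixth value, so the count is not read against chance. HFD male 3 was picked out 3 times. It had 17.6% at the single Cox5a position against 5.26 to 9.52% in the other HFD mice, 10.7% in Ndufs6 against 0 to 3.13%, and a mean of 10.3% over complex I genes against 8.53 to 9.14%. HFD male 2 had 7.39% in Ndufa13 against 3.61 to 4.87%, and 5.70% in Uqcrq against 0 to 1.05%. HFD female 4 had 20% in Ndufc1 against 5.56 to 10.8%. Values were present at 385299 positions in HFD male 4 and at 406225 to 417081 in the other HFD libraries.

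Among RD mice, RD female 2 had 1.44% in Ndufb6 against 0.203 to 0.602%, still under the lowest HFD value, and 80.1% in Ndufv3 against 84.6 to 86.6%. RD male 1 had 83.3% in Ndufb5 against 93.6 to 95.6%, and 1.96% in Ndufs6 where the other 5 were at 0. RD male 2 had 3.69% in Cox7c against 0.833 to 1.54%.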

How the results depend on the processing

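Of the 60 genes, 0 were called for sex and for the interaction under every alternative run, and 0 of their single positions were called for diet. For diet, 1 gene was called (Ndufb6) with an offset of 0.01, with 5 positions or more, without the sex term and without HFD female 4, so leaving out 1 mouse gave 0 to 1.

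Over all genes, the 2 calls for diet became 1 on untransformed rates, 5 with 5 positions or more, 0 with windows of 500 or 2000 bp, 4 with trend and robust variances, 4 without the sex term, 1 at 3′ ends and 0 to 4 without 1 mouse. The 2 calls for sex became 0 with an offset of 0.01 or 5 positions or more, 1 on untransformed rates or with every position that had a value, and 0 to 5 without 1 mouse. The 1 interaction call became 2 with an offset of 0.01 or trend and robust variances, 0 on untransformed rates or at mean rates of 5 to 95%, and 0 to 69 without 1 mouse, the highest counts being 69 without RD male 1, 3 without RD male 2 and 2 without RD female 1. Without RD male 1 or 2 the RD males are 1 mouse, assumed to vary like the other groups. The 16 called positions became 78 on untransformed rates, 39 with no limit on the mean, 54 at 20 to 80%, 31 with trend and robust variances and 0 to 22 without 1 mouse. The cause was not tested.

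Replicate numbers are shared between groups, and the fit with a replicate block called 1 gene for diet, 0 for sex, 0 for the interaction and 0 positions. None was a respiratory chain gene, and Ndufb6 had a limma adjusted p of 0.868 there. The 13 same-numbered pairs had a median correlation of deviations of -0.00401 (-0.0990 to 0.0540), and the 40 other pairs between groups 0.00279. Of the 12 mice, 2 correlated best with their own number. Deviations were taken from means of groups of 2 to 4 mice and sum to 0 in each group. This check therefore cannot exclude a shared litter, cage or batch.

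Complex levels moved with the choice of positions. Complex I was 11.9% with 2000 bp, 2.05% at 5′ ends and 4.63% with every position that had a value, complex II 2.24% with every such position, and complex III 2.32% at 5′ ends. Complex IV was 14.2, 23.6 and 3.42% and complex V 11.4, 14.8 and 2.65% with 500 bp, 2000 bp and 5′ ends. The difference between Cox4i2 and Cox4i1 reversed to -0.930 points with every position that had a value. The pair of Atp5g2 and Atp5g1 kept its direction and call in the 15 alternatives that gave a value, as did that of Cox4i2 and Cox4i1 in 14 of 15, though at 2000 bp Cox4i1 was 3.87% and the difference 4.95 points. At 500 bp Atp5g1 had 0 positions, and at 5′ ends Cox4i1 and Cox4i2 have no strand, so no value was had. Unknown depth limits single low values.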

Other observations

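Of the genes on the X chromosome with matching symbols, which the rule left out, 2 of 3 had positions. Ndufa1, a small complex I subunit at chrX:37187588-37191238, had 10 positions 425 to 498 bp beyond its higher-coordinate end, of which 2 had a value in all 12 mice. Averaged over the positions with a value, females had 32.7% ± 2.55 (SD, n = 7) and males 3.81% ± 3.87 (SD, n = 5). Female values ran from 28.5 to 36.4% and male values from 0 to 10.1%, without overlap. Ndufb11, an accessory complex I subunit, had 6 positions with values in all 7 females, at 23.9% ± 6.45, and in 1 male, at 9.09%. Cox7b had 0 positions.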
